A study of Mus musculus with 36 samples.

Results

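The lungs of female C57BL/6 mice that received the oil dispersant Corexit 9500 alone were compared with those of female mice that received saline. Corexit 9500 is a mixture of surfactants and solvents that is spread on oil slicks to break them into droplets. The comparison takes in 6 of the 36 mice of the series, chosen by the sex and treatment in their sample labels. Saline mice 1, 2 and 3 form the control group and Corexit 9500 mice 7, 8 and 9 the treated group. All were wild-type, were 8 weeks old at the start and received 50 µL into the airways on days 0, 7 and 13. Lungs were taken on day 14. The treated mice received a 0.1 dilution of the accommodated fraction, which for Corexit 9500 was the whole stirred mixture of dispersant and saline, since it hardly separated into phases. The study's methods describe oropharyngeal aspiration, a saline-accommodated fraction made and diluted in Hanks' balanced salt solution, and saline as the control, while the deposited descriptions speak of intratracheal instillation and a water-accommodated fraction. RNA of the left lung was sequenced. Each library is 1 mouse. Male mice given the same agents, 3 a group, stand in a second table, and whether they were handled together with the female mice is not given in the sources used here. The question is which lung genes differ after Corexit 9500 without oil, and whether female mice respond as male mice do.

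The airways and alveoli are lined by an epithelium that is rich in lipids, and surfactants can disturb both the cell membranes and the surfactant film over them. After injury the surviving epithelial cells spread, switch on keratinocyte-type genes such as the small proline-rich proteins, and then divide to fill the gaps. Resident alveolar macrophages take up debris and lipid and can turn on chitinase-like and tissue-remodelling genes. Division genes follow the cell cycle in a fixed order, with replication genes in S phase and mitotic genes in G2 and M phase.

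Between 17501716 and 27433981 reads were counted per library. Lung markers were present in all 6 libraries, with 3480 to 13500 CPM (counts scaled by the effective library size) of Sftpc, the surfactant protein of alveolar type 2 cells. Saline mouse 3 stood apart before any gene was tested. Mitochondrial (mt-) rows took 45.09% of its counts (95% Wilson interval 45.07% to 45.11%, counting error only), against 6.16% to 11.34% in the other 5 libraries. Its log2 ratio of counts on GC-rich to GC-poor genes lay at -3.22 relative to the median of the series' libraries with up to 20% mt- counts, while the other 5 lay at -0.33 to -0.06. GC-rich and GC-poor are the upper and lower quartiles of gene GC content, at 54.5% and 45%. Rows with a count above 0 numbered 12355 in saline mouse 3, 14615 in treated mouse 7 and 16655 to 17272 in the rest. Treated mouse 7 also had the highest mt- share (11.34%) and the lowest GC ratio (-0.33) of the 5 libraries other than saline mouse 3. Ager, a marker of alveolar type 1 cells, was at 173 CPM in saline mouse 3 and at 1510 to 1870 CPM in the others. Foxj1, of ciliated cells, was at 10.2 CPM against 107 to 148 CPM. Most fold changes of named genes and medians of gene lists are therefore given over 6 libraries and over 5, meaning without saline mouse 3.

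**Figure D1:**
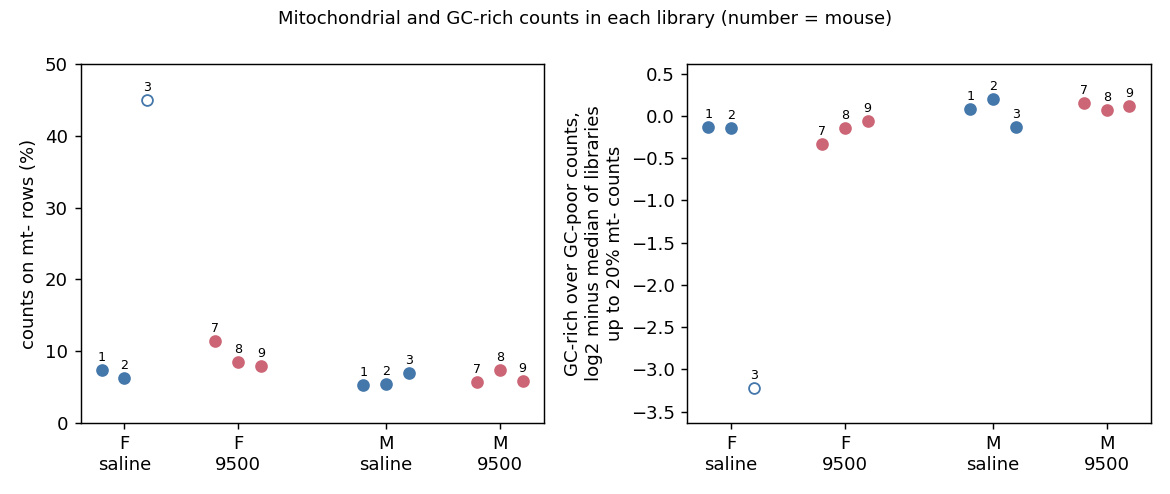
Share of counts on mt- rows in percent (left) and log2 ratio of counts on GC-rich to GC-poor genes minus the median of the series' libraries with up to 20% mt- counts (right), 1 point per female (F) or male (M) mouse. Saline mouse 3 of the female group (hollow) lies at 45.09% and -3.22, apart from all other mice plotted.

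No gene passed the test at an adjusted p under 0.05 (edgeR's quasi-likelihood test with Benjamini-Hochberg adjustment), which is 0% of 14839 genes tested over 6 libraries and 0% of 15167 tested over 5 libraries. At an unadjusted p under 0.05, 23 genes (0.155%) were higher and 31 (0.209%) lower in Corexit 9500 mice. Without saline mouse 3 these counts were 151 (0.996%) and 97 (0.64%). The groups did not overlap and all treated mice were the higher for 525 genes (3.54%) and the lower for 428 (2.88%). Without saline mouse 3 these counts were 1131 (7.46%) and 1500 (9.89%) of the 15167 genes tested. The median log2 fold change of all genes tested was 0.09 over 6 and -0.01 over 5 libraries. DESeq2's Wald test called 2 genes over 6 libraries, Sprr1a (adjusted p = 0.00727) and Tpt1-ps3 (adjusted p = 0.0122). Over 5 libraries it called 5, which were Sprr1a, Tpt1-ps3, Atxn1l, Itsn2 and Rps16-ps2. Below, "higher" and "lower" give the side on which values lie and do not mean that a gene passed an adjusted test.

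Among genes with a mean of at least 1 log2 CPM, no overlap between the groups and an unadjusted p under 0.05, the largest positive difference was that of Sprr1a (ENSMUSG00000050359), which encodes a small proline-rich protein of the cornified envelope made by squamous and injured epithelium. Its level was 1.82, 1.3 and 2.27 CPM in saline mice 1, 2 and 3 and 71.6, 6.8 and 32.2 CPM in treated mice 7, 8 and 9. The groups did not overlap, and treated mouse 8 lay nearest to saline. The log2 fold change was 4.37 (SE 0.91, 95% interval 2.21 to 6.53) with edgeR's adjusted p at 1 and the unadjusted p at 0.00217. Without saline mouse 3 it was 4.57 (SE 1.06), and under offsets for gene GC content and length 2.48. Male mice had 1.4, 1.48 and 1.32 CPM after saline and 20.4, 11.7 and 3.35 CPM after Corexit 9500, a log2 fold change of 3.07 with an adjusted p of 0.609.

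The promoter of Sprr1a is shown because this gene had the largest such difference and is the one that DESeq2 called higher over 6 libraries. Promoters of 2 division genes, Kif23 and Asf1b, stand beside it because both are among the genes with the largest positive differences. Each is the RefSeq sequence (build GRCm38.p6) from 200 bases before to 20 bases after the start of transcription, on the gene's strand. Capitals mark the AP-1 motif (TGACTCA or TGAGTCA) in Sprr1a, and in Kif23 and Asf1b the cell cycle homology region (CHR, TTTGAA or TTCAAA) and the CCAAT box (CCAAT or ATTGG).
Sprr1a, chr3:92485862-92486081, minus strand: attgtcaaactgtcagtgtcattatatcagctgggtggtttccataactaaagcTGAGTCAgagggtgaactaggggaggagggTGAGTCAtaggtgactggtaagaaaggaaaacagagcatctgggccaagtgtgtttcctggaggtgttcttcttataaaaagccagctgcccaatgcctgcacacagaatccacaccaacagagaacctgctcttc
Kif23, chr9:61946780-61946999, minus strand: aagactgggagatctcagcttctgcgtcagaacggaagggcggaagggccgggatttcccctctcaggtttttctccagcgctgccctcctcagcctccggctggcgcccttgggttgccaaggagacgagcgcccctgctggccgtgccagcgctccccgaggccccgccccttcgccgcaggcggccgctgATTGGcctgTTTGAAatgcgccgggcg
Asf1b, chr8:83955494-83955713, plus strand: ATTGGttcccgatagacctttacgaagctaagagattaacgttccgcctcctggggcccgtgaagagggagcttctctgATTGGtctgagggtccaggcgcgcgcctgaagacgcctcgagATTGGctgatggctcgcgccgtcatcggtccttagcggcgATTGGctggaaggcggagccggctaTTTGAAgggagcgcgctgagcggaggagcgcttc
Sprr1a held 2 copies of TGAGTCA, whose first bases lay at -146 and -116 from the start of transcription, and 1 CCAAT at -26 that is not capitalised. Kif23 held TTTGAA at 3 and ATTGG at -7, and Asf1b held TTTGAA at -14 and 4 copies of ATTGG. Other promoters were read but are not shown. Top2a held CHR and CCAAT letters, and Aurka held CCAAT but no CHR letters. Tnc and Tsc22d3 held none of these motifs, and Mmp12 held TGAGTCA at -44 from a later start but no motif at an earlier start. Read on both strands, the AP-1 motif stood in 3.85%, the CHR letters in 10.2% and the CCAAT letters in 37.0% of the 10868 tested genes with a promoter in the table. Among the 43 mitosis genes with a promoter the CHR letters stood in 25 and the CCAAT letters in 31. Among 15 genes of injured epithelium the AP-1 letters stood in 3. A match is a description of letters and not a binding site, and the short motifs can overlap other motifs.

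Genes of basal, squamous and injured epithelium were mostly higher in Corexit 9500 mice. Of 31 such genes listed, 23 were tested over 6 libraries, and 19 of them were higher and 4 lower. Over 5 libraries 19 of 24 were higher. The median log2 fold change was 0.79 over 6 libraries, 0.52 over 5 and 0.27 in male mice. Under GC and length offsets the 6-library median was 0.16. No member passed the adjusted test. An unadjusted p under 0.05 was reached by 2, where 0.155% of all genes were higher at that level, and for 6 the treated mice were all higher than the saline mice, as for 3.54% of all genes. Psca, the prostate stem cell antigen of transitional and squamous epithelia, had 4, 5 and 0 counts in saline mice 1, 2 and 3 and 37, 17 and 65 counts in treated mice 7, 8 and 9. Psca passed the filter on low counts through the treated group alone, so that its difference is a description, and the counts of 2 and 6 above include it. Its fitted log2 fold change was 3.79 (SE 1.24), and 3.39 without saline mouse 3. In male mice Psca was at 0.182 to 0.211 CPM after saline and at 0.719 to 1.57 CPM after Corexit 9500. Cdkn1a, the p21 inhibitor of the cell cycle, was at 38.7, 52.1 and 33.5 CPM in saline and 57.3, 66.5 and 90.5 CPM in treated mice, a log2 fold change of 0.78 over 6 libraries, 0.65 over 5 and -0.18 in male mice. Under GC and length offsets the 6-library value of Cdkn1a was -0.08. Krt8, a keratin of simple and injured epithelium, was at 228 and 233 CPM in treated mice 7 and 9 and at 126 CPM in treated mouse 8, inside the 36.9 to 133 CPM of the saline mice (log2 fold change 1.08 over 6 and 0.7 over 5 libraries). The list lay at 0.81, 0.06 and 0.58 above the mean of saline mice 1 and 2 in treated mice 7, 8 and 9, as the median log2 deviation of its genes. Saline mouse 3 lay at -1.79, so that part of the 6-library median of this list rests on that library.

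**Figure D2:**
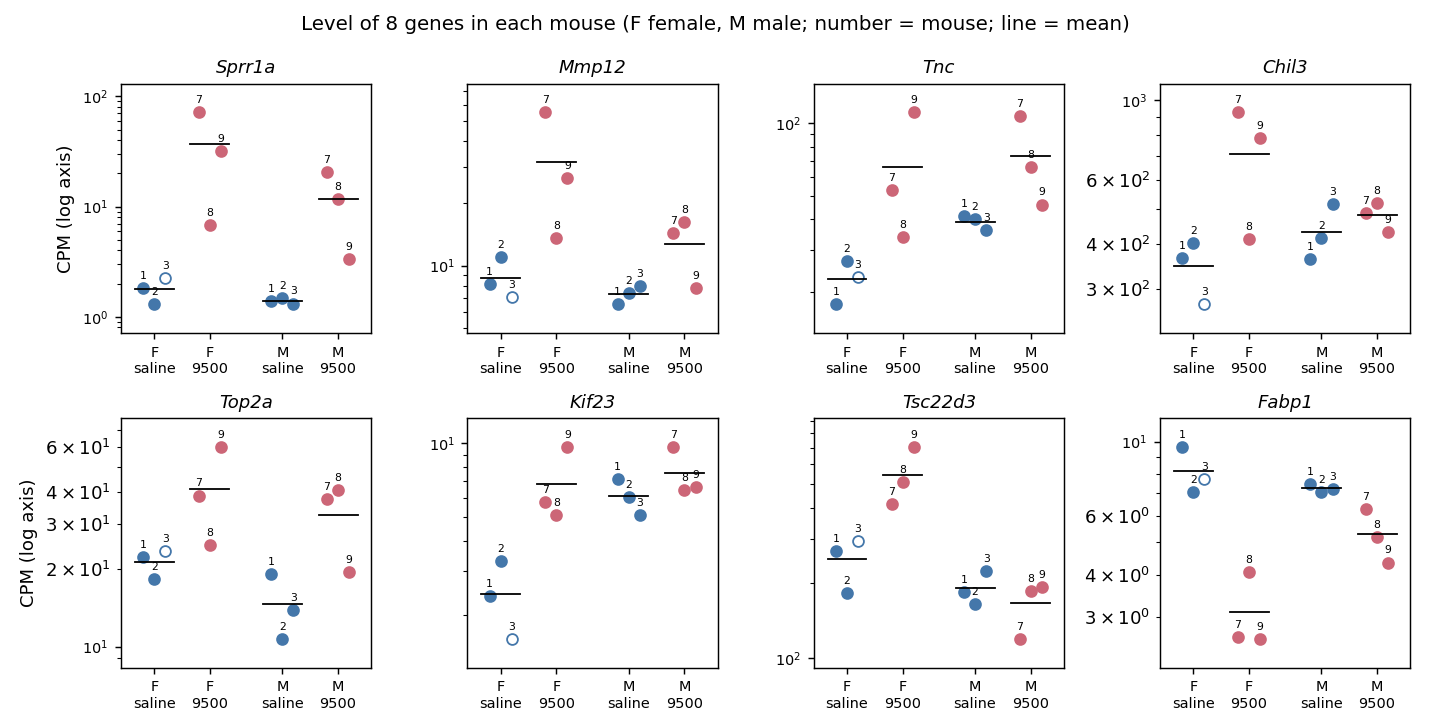
Level of 8 genes in CPM on a log axis, 1 point per mouse, with the mouse number and the group mean as a line (F female, M male, 9500 Corexit 9500; hollow, saline mouse 3). For Sprr1a, Mmp12, Chil3 and Top2a treated female mouse 8 is the treated mouse nearest to saline, and Fabp1 lies below saline in every treated mouse of both sexes.

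Cell division genes were higher in Corexit 9500 mice of both sexes, and this held without saline mouse 3. All 50 genes listed for mitosis and cytokinesis were tested, of which 43 were higher and 7 lower over 6 libraries, 47 were higher over 5 libraries and 48 were higher in male mice. Their median log2 fold change was 0.63 over 6 libraries, 0.89 over 5 and 0.87 in male mice, where the medians of all genes were 0.09, -0.01 and -0.01. Without treated mouse 9 the median of the list was 0.36. The groups did not overlap for 12 of the 50 genes, among them Plk1, Birc5, Foxm1 and Espl1, and in all 12 the treated mice were higher, which held for 3.54% of all genes. An unadjusted p under 0.05 was reached by 1 of 50 over 6 libraries and by 5 of 50 over 5 libraries, all higher, where 0.155% and 0.996% of all genes were higher at that level. In male mice 38 of 50 reached it, where 4% of all tested genes were higher and 2.36% lower at that level. In male mice 1 gene (0.00662%) passed the adjusted test, Prg4 (lubricin, adjusted p = 0.0156 with edgeR), which was at 2.48 to 2.81 CPM in male saline and 10.7 to 16 CPM in male treated mice. In female mice, where saline mouse 3 held the highest value, it was at 8.25 to 131 CPM after saline and 7.64 to 16.2 CPM after Corexit 9500.

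Within the treated female group the division genes differed by mouse. The median log2 deviation of the mitosis list from the mean of saline mice 1 and 2 was 0.79 in treated mouse 7, 0.15 in mouse 8 and 1.27 in mouse 9. In the saline mice it was 0.1, -0.1 and 0.28. Mouse 8 therefore lay within the range of the saline group only through saline mouse 3 (0.28), and slightly above saline mice 1 and 2. Treated mice 7 and 9 lay above all saline mice. In male mice 7, 8 and 9 the corresponding deviations from the mean of 3 saline mice were 1.1, 1.09 and 0.43. Top2a, the topoisomerase that untangles replicated chromosomes, was at 22.3, 18.3 and 23.6 CPM in saline mice and at 38.8, 24.9 and 59.9 CPM in treated mice (log2 fold change 0.94, SE 0.41, with 1.02 over 5 libraries and 0.58 without treated mouse 9). In male mice it was at 10.7 to 19.2 CPM after saline and at 37.6, 40.6 and 19.5 CPM after Corexit 9500 (log2 fold change 1.15). Kif23, a motor of the spindle midzone, was at 2.38, 3.32 and 1.59 CPM in saline and 5.77, 5.12 and 9.65 CPM in treated mice. Its log2 fold change was 1.48 (SE 0.57) over 6 libraries, 1.26 over 5 and 0.32 in male mice. Aurka, a kinase of the spindle poles, differed by 1.39 over 6 and 1.1 over 5 libraries. Asf1b, a chaperone that hands histones to new DNA, was at 4, 3.84 and 1.59 CPM in saline and 10.5, 5.28 and 11.9 CPM in treated mice, a log2 fold change of 1.54 (SE 0.6) and of 1.23 over 5 libraries.

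Most genes of the replication machinery were higher too. Of 40 such genes, 36 were higher and 4 lower over 6 libraries, with a median log2 fold change of 0.57, against 0.53 over 5 libraries and 0.38 in male mice. The groups did not overlap for 3 of them, Mcm4, Rfc5 and Pole, with the treated mice higher, as for 3.54% of all genes. Pole, the catalytic subunit of leading-strand DNA polymerase, was at 3.84, 4.47 and 1.93 CPM in saline and 13.2, 5.84 and 18.3 CPM in treated mice, a log2 fold change of 1.86 (SE 0.62), 1.58 over 5 libraries and 0.57 in male mice. Cdc6 and Mcm10, which load and start the replicative helicase, differed by 1.41 and 1.31 over 6 libraries and by 1.5 and 1.36 over 5, but treated mouse 8, with 2.88 CPM of Cdc6 and 2.96 CPM of Mcm10, did not lie above the saline mice, at 2.97 to 3.64 CPM and 1.7 to 3.23 CPM. Of 48 replication-dependent histones listed, which are also made in S phase, only 11 passed the filter on low counts over 6 libraries. How well mRNA libraries capture these transcripts was not tested, so their direction says little about S phase. Those tested did not share the direction of the replication genes in all fits. Of the 11, 6 were higher over 6 libraries (median 0.1), against 11 of 13 over 5 libraries (median 0.29) and 2 of 13 in male mice (median -0.18). A further list holds the S phase and checkpoint genes that the study chose for PCR among genes higher after Corexit 9527, a choice that used the same saline mice, so their direction is not independent evidence. Of its 11 genes, 10 were higher and 1 lower, with a median of 0.93 over 6 libraries, 0.98 over 5 and 1.11 in male mice. Uhrf1, which keeps DNA methylation through replication, was at 9.98, 11.6 and 1.7 CPM in saline and 19.5, 10.1 and 40.7 CPM in treated mice, and the groups overlap at mouse 8 (log2 fold change 1.59 over 6 and 1.12 over 5 libraries). Dtl, an adaptor that marks replication proteins for breakdown, was at 2.46, 2.69 and 0 CPM in saline and 9.02, 3.56 and 11 CPM in treated mice. Clspn, the checkpoint adaptor claspin, was at 5.03, 3.78 and 0 CPM and at 14, 4.64 and 14.8 CPM. The 0 values belong to saline mouse 3, and without it the log2 fold changes were 1.61 for Dtl and 1.34 for Clspn, against 2.17 and 1.91 with it.

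**Figure D3:**
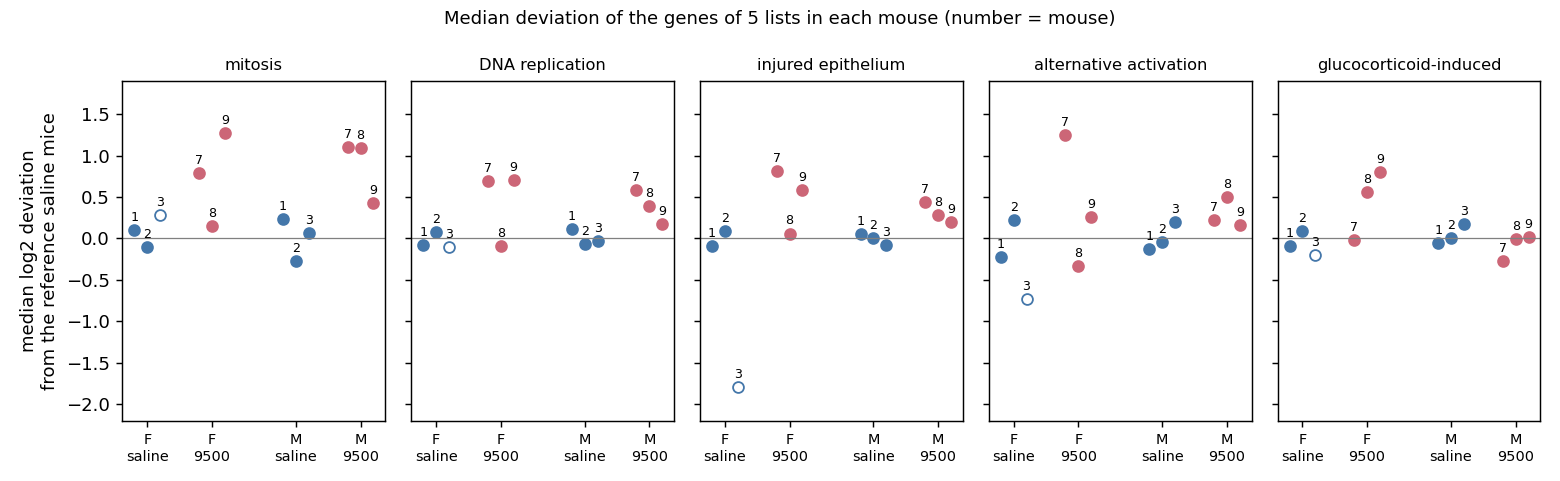
Median log2 deviation of the tested genes of 5 lists in each mouse, from the mean of saline mice 1 and 2 in female (F) and of 3 saline mice in male (M) mice; hollow, saline mouse 3. For mitosis, replication and injured epithelium treated female mouse 8 (0.15, -0.09 and 0.06) lies beside the saline mice, while for glucocorticoid-induced genes it lies at 0.56 and mouse 7 at -0.02.

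Lists of DNA repair genes, which share members with the replication list, were also examined. Of 34 tested genes of homologous recombination and the Fanconi anemia pathway, 22 were higher, with a median log2 fold change of 0.21 over 6 libraries and 0.08 over 5, and 0 reached an unadjusted p under 0.05 in either fit. In male mice 26 of 34 were higher, with a median of 0.27. Fancf, a subunit of the Fanconi core complex, was at 1.66, 1.9 and 7.04 CPM in saline and at 0.838, 0.68 and 1.11 CPM in treated mice, a log2 fold change of -2.01 over 6 and -1.02 over 5 libraries. Rad50 and Nbn, both of the complex that senses broken DNA ends, had log2 fold changes of -1.92 and -1.3 over 6 libraries and of 0.11 and -0.01 over 5. Rad50 was at 481 CPM in saline mouse 3 and at 42.2 to 57.3 CPM in the other 5 mice. Of 22 mismatch repair genes, 16 were higher over 6 and 11 over 5 libraries, with medians of 0.32 and 0.02, and 20 were higher in male mice, with a median of 0.18. Ssbp1, a single-strand binding protein of mitochondria, differed by -1.56 and -0.01 in the 6-library and 5-library fits, and Rfc5 of the clamp loader by 0.79 and 0.45. Of 31 p53 target genes, 18 were higher over 6 and 13 over 5 libraries, with medians of 0.14 and -0.06, and 15 in male mice, with a median of 0. Apart from Cdkn1a, the members with the smallest p were Polk, a translesion polymerase, at -0.91 and -0.36, and Ddit4l, an inhibitor of mTOR signaling, at -1.48 and -0.16.

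Several macrophage and matrix genes were higher in treated mice 7 and 9. Mmp12, the elastase of macrophages (ENSMUSG00000049723), was at 8.16, 11 and 7.04 CPM in saline and 55.1, 13.6 and 26.5 CPM in treated mice, without overlap. It differed by a log2 fold change of 1.86 (SE 0.58, 95% interval 0.47 to 3.24), 1.73 without saline mouse 3, 1.18 without treated mouse 7 and 0.81 in male mice. Of 23 tested metalloproteinases and inhibitors 17 were higher over 6 and 13 over 5 libraries, and the median was 0.41 over 6 and 0.01 over 5 libraries. Timp4, an inhibitor of these proteases, was at 1.93 to 2.14 CPM in saline and 0.394 to 0.919 CPM in treated mice, a log2 fold change of -1.48 over 6 and -1.47 over 5 libraries. Adamts15, a protease of the matrix, overlapped between the groups and differed by 0.91 and 0.57. Chil3, a chitinase-like protein that alveolar macrophages secrete, was at 366, 403 and 272 CPM in saline and 924, 411 and 785 CPM in treated mice (log2 fold change 1.03, SE 0.42). Over 5 libraries Chil3 differed by 0.88 and in male mice by 0.15. Of 15 tested genes of alternative activation, 9 were higher over 6 libraries (median 0.68) and 10 over 5 (median 0.39). Without treated mouse 7 the median was 0, and without treated mouse 8 it was 1.06. Male mice had 14 of 15 higher, with a median of 0.29. Ccl17 and Ccl22, chemokines that attract T cells through Ccr4, were at 42.5 and 53 CPM in treated mouse 7. In treated mouse 9 they were at 9.38 and 37 CPM. In treated mouse 8 they were at 2.76 and 17.9 CPM, inside the saline values of 0 to 4.77 and 8.07 to 27.1 CPM. The lower ends belong to saline mouse 3, and saline mice 1 and 2, at 3.48 and 4.77 CPM and at 18.9 and 27.1 CPM, lay above treated mouse 8. The log2 fold changes of Ccl17 and Ccl22 were 2.71 and 1 over 6 libraries and 2.14 and 0.65 over 5. Summed over the list the level was 5320 CPM in treated mouse 7, 1700 in mouse 8 and 2970 in mouse 9, against 1360 to 2860 CPM in saline mice. In whole lung, more cells of a type and more RNA per cell cannot be told apart.

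The split of alveolar macrophage markers depended on saline mouse 3. Of 25 tested, 9 were higher and 16 lower over 6 libraries (median -0.08), 14 higher and 11 lower over 5 (median 0.11) and 16 higher and 9 lower in male mice (median 0.14), and their summed level was 2130 to 2720 CPM in saline and 2030 to 3450 CPM in treated mice. Ctsk, a collagen-cutting cathepsin, was at 59.6, 15.8 and 37.6 CPM in treated mice and 12.5 to 21.6 CPM in saline mice (log2 fold change 1.08 over 6 and 0.88 over 5 libraries). With 1 mouse left out Ctsk was as low as 0.57. Of 41 lysosome genes, 33 were higher over 6 libraries and 28 over 5, with medians of 0.34 and 0.11, and 0.11 in male mice. Ctsh, a cathepsin that processes surfactant protein, was at 246, 203 and 106 CPM in saline and 344, 257 and 354 CPM in treated mice (0.79 and 0.51 on the log2 scale). Lipa, the lysosomal acid lipase, differed by -0.87 over 6 and 0.25 over 5 libraries.

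Of the matrix genes, Tnc, which encodes the tenascin C of healing tissue, was at 17.8, 26.9 and 23.1 CPM in saline and 52.8, 33.7 and 111 CPM in treated mice. It differed by a log2 fold change of 1.54 (SE 0.5, 95% interval 0.34 to 2.74), 1.56 without saline mouse 3, 0.94 without treated mouse 9 and 0.9 in male mice. Col1a1, the main chain of collagen I, was at 220 to 337 CPM in saline and 349 to 465 CPM in treated mice (log2 fold change 0.59, and 0.45 over 5 libraries), and under GC and length offsets at -0.57. Ogn, a small proteoglycan, differed by -1.34 over 6 libraries and -0.08 over 5. Of 45 fibroblast and matrix genes, 29 were higher over 6 libraries and 32 over 5, with medians of 0.32 and 0.19, and 0.17 in male mice. The 6-library median was -0.02 under GC and length offsets.

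Genes that glucocorticoids induce were higher in treated female mice 8 and 9. Of 19 such genes, 16 were higher over 6 libraries and 18 over 5, with median log2 fold changes of 0.49 and 0.62, while 5 of 19 were higher in male mice, with a median of -0.11. Under GC and length offsets over 6 libraries the median was 0. Tsc22d3 (ENSMUSG00000031431), the leucine zipper known as GILZ, was at 270, 183 and 295 CPM in saline and 415, 511 and 704 CPM in treated mice. Its log2 fold change was 1.12 (SE 0.37, 95% interval 0.24 to 2), 1.26 without saline mouse 3 and -0.2 in male mice. Cebpd, a transcription factor of the stress response, was at 56.1, 57.9 and 43.3 CPM in saline and 72.3, 90.1 and 99.6 CPM in treated mice, and differed by 0.73 over 6 libraries, 0.61 over 5, 0.37 under GC and length offsets and -0.24 in male mice. Per1, a clock gene that glucocorticoids also induce, was at 115, 171 and 122 CPM in saline and 138, 420 and 380 CPM in treated mice, so that mouse 7 lay among the saline mice (log2 fold change 1.19 over 6 and 1.12 over 5 libraries, and -0.31 under GC and length offsets). Per2 was likewise at 125 and 120 CPM in treated mice 8 and 9 and at 49.7 CPM in mouse 7, against 51.1 to 62.7 CPM in saline mice (0.76 and 0.78 on the log2 scale, and -0.02 under these offsets). Zbtb16 ranged from 14 to 162 CPM among female saline mice and from 14.3 to 186 CPM among male saline mice alone. The hour at which each mouse was killed is not given in the sources used here. Of 20 clock genes tested, 9 were higher and 11 lower over 6 libraries (median -0.13), and of 21 tested over 5 libraries 11 were higher and 10 lower (median 0.02). Bhlhe41, a repressor of the clock, was at 402 CPM in saline mouse 3 and at 22.4 to 44.3 CPM in the other 5 mice.

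The difference between the sexes was tested as the interaction of sex and Corexit 9500 over 12 libraries, and again over 11 without saline mouse 3. In both fits 0 genes passed an adjusted p under 0.05 with edgeR, and 112 and 307 (1.96%) had an unadjusted p under 0.05. Over 11 libraries the log2 fold change of Tsc22d3 was 1.46 higher in female than in male mice (95% interval 0.61 to 2.31) at an adjusted p of 1 and an unadjusted p of 0.00308. For Cebpd the difference was 0.85 (0.28 to 1.43) and for Per1 it was 1.08 (-0.13 to 2.29). For the pseudogene Tpt1-ps3 it was -2.65 (-3.79 to -1.51, unadjusted p of 0.00037 with edgeR), and DESeq2 called it over 12 libraries (adjusted p = 0.00802). These 4 genes were named for their differences in the same female mice, so their interaction values are no independent evidence. Of the glucocorticoid-induced genes 3 of 19 had an unadjusted interaction p under 0.05, and of the mitosis genes 0 of 50. For Sprr1a the difference between the sexes was 1.5 (-1.16 to 4.15), so its interval takes in both no difference and a large one.

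Among the genes that were lower in treated mice, 9 of the 10 largest had their highest value in saline mouse 3. Among the 10 largest that were higher, 8 had their lowest saline value in the same mouse. Sh3gl2 (endophilin A1) was at 4.47, 4.35 and 269 CPM in saline mice 1, 2 and 3 and at 2.81, 4.16 and 2.87 CPM in treated mice. Its log2 fold change of -4.83 became -0.43 without saline mouse 3. In the same way Erich2 went from -2.48 to -0.65, Rpl14-ps1 from -2.45 to -1.29, Zfp951 from -2.38 to -0.9 and Matn2, a matrix adaptor protein, from -2.31 to -0.79. Cxcl9, an interferon-induced chemokine, went from -2.29 to -1.02, Hpgds, a prostaglandin D synthase, from -2.11 to -1.26, Casq2, the cardiac calsequestrin, from -2.07 to -0.74 and Ccdc146 from -1.48 to -0.64. The tenth was Tpt1-ps3, a pseudogene of the translationally controlled tumor protein. It was at 57.4, 106 and 76.2 CPM in saline and 14.6, 16.9 and 5.63 CPM in treated mice, a log2 fold change of -2.69 (SE 0.52) and of -2.73 without saline mouse 3. In male mice it was at 105 to 152 CPM in all 6 libraries, a log2 fold change of -0.07. Reads of a pseudogene and its parent gene can be split between them, so values of Tpt1-ps3, Rpl14-ps1 and Rps2-ps10 are uncertain.

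The genes of this size that were higher and are not described above were Atp5g2, a subunit of mitochondrial ATP synthase, Rps2-ps10, Tnfrsf23, a decoy receptor for TRAIL, and Irx1, a homeobox factor. Atp5g2 was at 81.5 CPM and Rps2-ps10 at 31.8 CPM in treated mouse 7. In treated mice 8 and 9 they were at 15.9 and 14.4 CPM and at 4.24 and 3.75 CPM, so that mouse 7 was far above both. Over 5 libraries Atp5g2 differed by 2.25 and Rps2-ps10 by 2.59, against 2.78 and 2.73 over 6. Without treated mouse 7 they differed by 1.47 and 0.98. Tnfrsf23 was at 2.61 to 4.44 CPM in saline and 6.12 to 11.6 CPM in treated mice (log2 fold change 1.29 over 6 and 1.11 over 5 libraries). Irx1 was at 70.6, 75.9 and 31.1 CPM in saline and 110, 143 and 149 CPM in treated mice, a log2 fold change of 1.17 over 6 libraries and 0.87 over 5, with -0.29 under GC and length offsets. All 10 of the largest positive differences were positive in male mice too, and 6 of the 9 largest negative ones with a male value were negative there. Over all 14679 genes tested in both sexes 59.2% had the same sign.

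The lipid-handling genes with the smallest p were Fabp1, Fabp3 and Ucp2, of which the first pair encode fatty acid binding proteins and were lower in treated mice. Fabp1 (ENSMUSG00000054422), which alveolar macrophages express, was at 9.62, 7.07 and 7.72 CPM in saline and 2.61, 4.08 and 2.57 CPM in treated mice. The log2 fold change was -1.4 (SE 0.49, 95% interval -2.57 to -0.24), -1.43 without saline mouse 3 and -0.46 in male mice. Fabp3 was at 21.3, 17.4 and 24.4 CPM in saline and 11.4, 9.8 and 8.81 CPM in treated mice, a log2 fold change of -1.07, of -0.95 over 5 libraries, of -2.59 under GC and length offsets and of 0.05 in male mice. The other family members on the list, Fabp4 and Fabp5, differed by -0.18 and -0.1. Ucp2, a mitochondrial carrier, was at 549, 455 and 267 CPM in saline and 1170, 592 and 706 CPM in treated mice (0.96 over 6 and 0.71 over 5 libraries on the log2 scale). With 1 mouse left out Ucp2 was as low as 0.61. Over the 45 genes of PPAR signaling and fatty acid handling 23 were higher and 22 lower over 6 libraries (median 0). Over 5 libraries 13 were higher and 32 lower (median -0.12), 3 of them lower at an unadjusted p under 0.05, against 0.64% of all genes, and in male mice 16 were higher and 29 lower (median -0.06).

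Chemokines and markers of infiltrating cells were examined next. Of 16 CXC chemokines and receptors tested over 6 libraries, 10 were lower (median -0.29), and of 19 tested over 5 libraries 12 were lower (median -0.37). The median was -0.77 without treated mouse 7 and -0.22 without treated mouse 8. Cxcl13, which draws B cells, was at 3.92, 7.74 and 20.3 CPM in saline and 3.32 to 3.65 CPM in treated mice (log2 fold change -1.61 over 6 and -0.74 over 5 libraries), and Ppbp of platelets went from -1.26 over 6 libraries to 0.1 over 5. Of 28 CC chemokines and receptors, 20 were higher over 6 libraries and 18 over 5, with medians of 0.29 and 0.2, but the 6-library median was -0.17 with voom. Ccr3, the eotaxin receptor of eosinophils, was at 1.86, 2.33 and 2.61 CPM in saline and 0.789, 0.4 and 0.574 CPM in treated mice, from 23 to 77 and 10 to 16 counts. Its log2 fold change was -1.94 (SE 0.78), -1.83 without saline mouse 3 and 0.68 in male mice. Of 11 eosinophil, basophil and mast cell markers, 5 were higher and 6 lower over 6 libraries (median -0.63). Of 12 tested over 5 libraries, 4 were higher and 8 lower (median -0.3). Siglecf, which eosinophils and alveolar macrophages share, overlapped between the groups, as did Hdc, the enzyme that makes histamine. Over 5 libraries they differed by -0.57 and 0.41, against -0.93 and 0.77 over 6. Of 17 neutrophil markers, 10 were higher and 7 lower over 6 libraries (median 0.3), and 12 of 18 were higher over 5 (median 0.15). Under GC and length offsets the 6-library median was -0.22. The summed level of these markers was 357, 557 and 452 CPM in saline and 707, 276 and 503 CPM in treated mice. Clec4e was at 3.09 to 13.2 CPM in saline and 1.82 to 2.88 CPM in treated mice, a log2 fold change of -1.61 over 6 and -0.69 over 5 libraries. S100a8 went from -1.45 to 0.02 and Il1r2 from 1.95 to 1.4, and both overlapped between the groups. Treated mouse 7 also had the highest sums of MHC class II genes (4690 CPM against 656 to 2750 CPM in saline mice) and of B cell markers (2150 CPM against 800 to 1620 CPM). The part of these cell markers in the other differences was not tested.

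Interferon-induced genes lay slightly below saline, with 23 of 37 lower and medians of -0.11 over 6 and -0.1 over 5 libraries. In male mice 35 of 37 were lower, with a median of -0.29, and 12 were lower at an unadjusted p under 0.05, against 2.36% of all genes. Gbp5 and Tgtp1, both interferon-induced GTPases, differed by -0.96 and -0.73 over 6 libraries and by -0.43 and -0.53 over 5, and Ifi44 by -1.98 and 0.16. Of 41 genes of the aryl hydrocarbon receptor and xenobiotic metabolism, 20 were higher and 21 lower over 6 libraries (median -0.01), 15 higher and 26 lower over 5 (median -0.13) and 10 higher and 31 lower in male mice (median -0.14). The members with the smallest p, Sult1d1, Fmo1 and Arnt, were at -1.03, -1.05 and -0.87 over 6 libraries and at -0.45, -0.21 and -0.21 over 5. Of 30 genes of the Nrf2 oxidative stress response, 24 were higher over 6 libraries (median 0.32), against 19 of 31 over 5 libraries (median 0.07) and 15 of 31 in male mice (median 0). Sod3, the extracellular superoxide dismutase, was at 511, 479 and 314 CPM in saline and 1410, 571 and 677 CPM in treated mice (1.03 over 6 and 0.84 over 5 libraries on the log2 scale). Leaving out 1 mouse took Sod3 as low as 0.51. Mt2, a metallothionein, overlapped between the groups and differed by 1.2 and 0.88, and by 0 under GC and length offsets, and Cat (catalase) went from -1.38 over 6 libraries to 0.07 over 5. Ciliated cell genes were lower for 17 of 28 over 6 libraries (median -0.26), 23 of 28 over 5 (median -0.18) and 24 of 28 in male mice (median -0.1). Of these, the dynein chains Dnaic1 and Dnaic2 differed by -0.83 and -0.99 over 6 libraries, and by -0.41 and -0.53 over 5. Rsph4a, of the radial spoke, differed by -1.38 and -0.06.

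**Figure D4:**
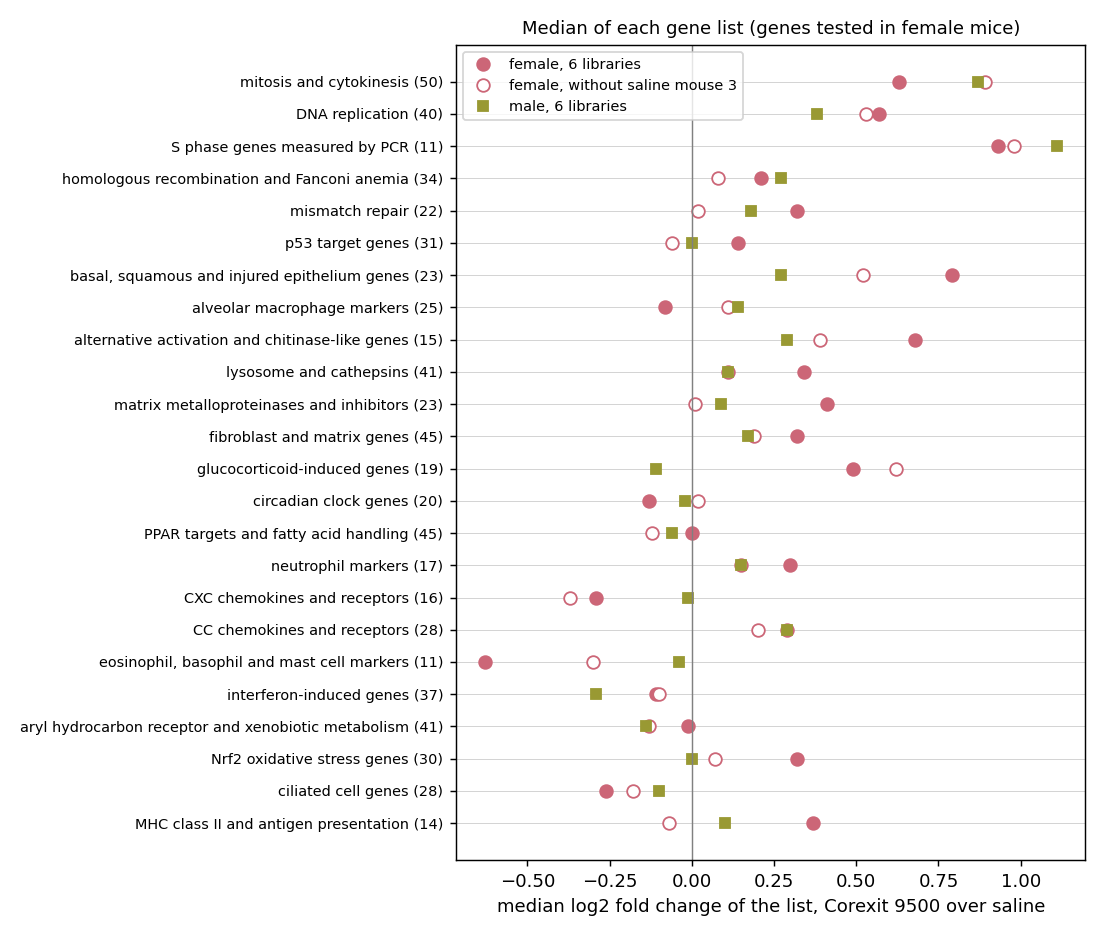
Median log2 fold change (Corexit 9500 over saline) of 24 gene lists, with the number of genes tested over 6 libraries in parentheses (filled circles, female mice over 6 libraries; open circles, without saline mouse 3; squares, male mice). The mitosis list lies at 0.63, 0.89 and 0.87, and the glucocorticoid list at 0.49, 0.62 and -0.11.

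As the 1 pair of dispersants compared, Corexit 9500 was also set beside Corexit 9527, the older dispersant, at the same dilution and days in female mice 10, 11 and 12. Corexit 9527 contains 2-butoxyethanol, which Corexit 9500 does not. Mouse 11 had 38.38% of its counts on mt- rows, so the comparison was also made without it. With edgeR 0 genes passed an adjusted p under 0.05 in either fit, and 223 and 325 (2.14%) had an unadjusted p under 0.05. Without mouse 11, only Corexit 9527 mice 10 and 12 remain. In that fit mitosis genes were lower after Corexit 9500 for 46 of 50 (median -0.38), with 0 at an unadjusted p under 0.05. Of all 15174 genes tested in it, 7909 were lower (median -0.01). The log2 difference of Sprr1a was 1.05 (95% interval -0.98 to 3.08), that of Mmp12 -0.9 (-2.31 to 0.52) and that of Top2a -0.33 (-1.2 to 0.54). These intervals take in no difference and differences of 2 or more on the log2 scale for Sprr1a and Mmp12, so the dispersants cannot be called alike or different for these genes. Tpt1-ps3 had a log2 difference of -3.17 (interval -4.58 to -1.75, unadjusted p of 0.00125 and adjusted p of 1) without mouse 11. With mouse 11 the difference was -2.58 (interval -6.39 to 1.22, unadjusted p of 0.153), so the interval then takes in no difference.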

How the data were processed

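Lung RNA of 36 mice was sequenced from stranded mRNA libraries. Per the labels and the study's methods, the authors estimated reads with Salmon against the GRCm38 transcriptome (versions are not given in the sources used here) and combined them with tximport. The deposited values are expected counts per gene symbol, unnormalized, with 1 table for each sex. They were already whole numbers. The female table has 18120 rows, of which 4 share a name and were left out (0.0103% of counts) and 24 carry a date as their name. Positions and GC content came from GENCODE M21 (95.5% of names matched).

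Counts were tested with edgeR 4.0.16 (TMM, filterByExpr, quasi-likelihood F-test, Benjamini-Hochberg adjustment) in R 4.3.3 over the 6 libraries compared, without covariates, and again without libraries over 20% mt- counts. Male mice were fitted alone, and the sexes through an interaction over the rows of both tables. A standard error is the log2 fold change divided by the square root of F. Mean log2 CPM used a prior count of 2. The test was tried on simulated data. DESeq2 1.42.0, limma 3.58.1 (voom), other scaling and filters, offsets for GC content and length, and each mouse left out were alternatives. DESeq2 and the offsets without the libraries over 20% were added after seeing the data. Over pairs of the 6 libraries chi-square per gene was at least 24.7, so none was entered repeatedly.

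No gene passed the adjusted test, so named genes were the 10 largest log2 fold changes in each direction among genes with a mean of at least 1 log2 CPM, an unadjusted p under 0.05, no overlap of the groups and the same sign without libraries over 20%, with pseudogenes kept and Gm, Rik and date names left out. The 3 members with the smallest p of each of 23 lists described were added. A gene among these added members, outside the 10 largest in either direction, is not reported here. Any other gene named was picked with its values known. The members and the 48 gene lists were chosen with earlier results of these data known. P-values measure the spread between mice. Depth was 17501716 to 27433981 counts per library, and groups of 3 mice limit the precision.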

Additional observations from a re-analysis of the deposited data

Results flagged for a closer look

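Among the 75 genes named by rule, 2 had opposite orders in the sexes, in that every female Corexit 9500 mouse lay below each female saline mouse, while every male Corexit 9500 mouse lay above each male saline mouse. Over all 14679 genes tested in both sexes this order was seen for 14 (0.0954%) and its reverse for 10 (0.0681%). The 2 genes were picked for their opposite directions, so the p-values of their interaction are no independent evidence. Ccr3, with log2 fold changes of -1.94 in female and 0.68 in male mice, differed by -2.62 between the sexes. The interaction over 12 libraries gave an adjusted p of 1 (edgeR) and an unadjusted p of 0.00346, and over 11 libraries without saline mouse 3 it was -2.51 (95% interval -3.97 to -1.05). Cxcl13, at -1.61 in female and 0.57 in male mice, differed by -2.18, with an adjusted p of 1, and by -1.3 without saline mouse 3. Both genes were at a few CPM in most mice, with Cxcl13 at 20.3 CPM in female saline mouse 3. Beyond the 20% limit on mt- counts and the fits with each mouse left out, outlying mice were not searched for.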

How the results depend on the processing

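The limits are 3 mice a group, 1 control library (saline mouse 3) with 45.09% of its counts on mt- rows and few on GC-rich genes, and no stated link between the handling of the sexes. Treated mouse 7 also had fewer rows above 0 (14615) than saline mice 1 and 2 and treated mice 8 and 9. No paired analysis was possible because the saline and Corexit 9500 groups share no mouse number. The count of genes past an adjusted p of 0.05 was 0 under the 17 alternatives run other than DESeq2, which called 2, and 5 without the libraries over 20% mt- counts (added after seeing the data). For the interaction of sex and Corexit 9500 DESeq2 called 6, and leaving out each mouse gave 0 to 3, with 3 without female saline mouse 2. Against Corexit 9527 DESeq2 called 2 and voom 1. Genes at an unadjusted p under 0.05 were 23 higher and 31 lower in the 6-library fit, 759 and 730 with voom, 154 and 307 with all 18 female libraries, and from 9 to 151 and 11 to 259 when each mouse was left out. Of 75 genes named by rule, 16 changed sign under at least 1 of 19 alternatives. Without saline mouse 3 (the same fit as without libraries over 20%) Bhlhe41 was 0.41, Cat 0.07, Ifi44 0.16, Lipa 0.25, Ppbp 0.1, Rad50 0.11 and S100a8 0.02, and leaving out another mouse took them as low as -2.5, -1.79, -2.45, -1.24, -1.89, -2.38 and -2.25. The median of all genes, 0.09 with edgeR over 6 libraries, was -0.04 with GC and length offsets, -0.02 with voom and 0.22 without saline mouse 1. With all female libraries up to 20% Bhlhe41, Cat, Ifi44, Lipa, Ppbp, Rad50 and S100a8 had the same values as without saline mouse 3 except Ppbp at 0.09. With DESeq2 on the 5 libraries these genes were at 0.43, 0.09, 0.18, 0.26, 0.11, 0.13 and 0.04, and Nbn was 0. With GC and length offsets on the 5 libraries Bhlhe41 was 0.48, Cat 0.09, Ifi44 0.13, Lipa 0.22 and Rad50 0.11. With voom Bhlhe41 was 0.31, Cat 0.03, Ddit4l 0.04, Lipa 0.19, Rad50 0.19 and Rsph4a 0.07. With GC and length offsets on 6 libraries Cdkn1a was -0.08, Col1a1 -0.57, Irx1 -0.29, Mt2 0, Per1 -0.31 and Per2 -0.02, where the cause was not tested. In the female comparison with saline, Sprr1a and Tpt1-ps3 passed the adjusted test with DESeq2 over 6 and over 5 libraries and in no other setting. The medians of the mitosis list ran from 0.36 without treated mouse 9 to 0.94 without treated mouse 8, those of DNA replication from 0.41 to 0.76, of injured epithelium from 0.16 with GC and length offsets to 1.03 without saline mouse 1, and of glucocorticoid-induced genes from 0 with these offsets to 0.78 without treated mouse 7.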
